A study of Homo sapiens with 6 samples.

Results

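The mitotic spindle, kinetochore and cytokinesis genes are a set of 45 named genes whose proteins separate the chromosomes and divide the cell, listed by name. All 45 had a row among the 32029 genes in the count tables, and 44 of them were among the 14996 genes with enough reads to be tested. The remaining gene, PRC1, is described with the cytokinesis genes. The data are RNA-seq read counts from 6 cultures of SW480, a human colorectal cancer cell line, collected 48 h after transfection with siRNA. In 3 cultures negative control siRNA was used (siNC in the records, genotype given as WT, here siControl), and in 3 cultures siRNA against ZEB1 (siZEB1, genotype given as ZEB1 knockdown). The paper speaks of siRNAs against ZEB1 without giving their number for these cultures. ZEB1 is a zinc finger transcription factor that represses epithelial genes, and the comparison asks which transcripts change when it is depleted. All values come from 1 cell line and 1 time point, and no siRNA sequence was used here.

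Mitosis begins when the CDK1, Aurora and Polo kinases switch on. Condensins compact the chromosomes, microtubules of the spindle attach to kinetochores built on the centromeres, and the spindle checkpoint holds back the anaphase-promoting complex until every chromosome is attached. The complex then marks securin and cyclin B for destruction, the sister chromatids part, and the centralspindlin and RhoA pathway cuts the cell into daughters. Transcription of most of these genes peaks in G2 and M phase. In cycling cells it depends on CCAAT boxes bound by NF-Y and on the cell cycle genes homology region (CHR), an element bound by complexes of LIN54 with B-MYB and FOXM1 in dividing cells and by the repressive DREAM complex in resting cells.

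Promoter sequences from RefSeq (GRCh38.p14) were available for 38 of the 45 genes, as windows from 250 bases before to 50 bases after the start of transcription. RACGAP1, BIRC5, BUB3, AURKA, TPX2, UBE2C and TTK had no entry. TTTGAA, the letters of the CHR, was present on either strand in 28 of the 38 (73.7%), against 18.2% of 27305 genes with a window and 44 of 134 other mitotic genes (32.8%). CCAAT was present in 29 of the 38 (76.3%), against 39.7% of all genes, and both motifs occurred together in 21 (55.3%), against 7.26%. TTTAAA, a variant of the CHR, was found in 11 (28.9%, against 14.5%). The E-box CACCTG, to which ZEB1 is known to bind, was found in 7 (18.4%, against 24.1%), namely CDC25B, CDC25C, BUB1B, NUF2, KIF23, ECT2 and SMC2. A match of letters describes the window and does not show that a factor was bound.

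The CHR is shown in capitals, with 8 bases on each side, for the 8 tested genes given culture by culture in CPM in the following paragraphs whose window held it. The match nearest to the start was taken, and TTCAAA is the same element on the other strand.
CENPA: gcgagcgaTTTGAAcgcgagcg
ECT2: gcttagttTTTGAAtcggttgt
NCAPD2: cgttgagaTTTGAActcggtat
PLK1: gcgccgcgTTTGAAttcgggga
CDC20: ggttggatTTTGAAggagccaa
KIF11: gtctctttTTCAAAttgaggcg
TOP2A: ttggtttaTTCAAAcaaacccc
MKI67: cgttttcgTTTGAAttgggcgg
These 8 sites lay at different distances from the start of transcription, at bases -18 to -13 in CENPA, -145 to -140 in NCAPD2, -29 to -24 in PLK1 and in MKI67, -65 to -60 in CDC20, -28 to -23 in KIF11 and -151 to -146 in TOP2A. In ECT2 the site lay inside the transcript, at bases 35 to 40, and a further match lay upstream.

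Longer upstream stretches are shown for CENPA, ECT2 and NEK2, which rose after ZEB1 knockdown, and for SPC24, which fell. These had the largest changes among the genes that passed the test and had an entry. Capitals mark the CHR or the CCAAT box of NF-Y, which reads ATTGG when it lies on the other strand. Each run is written 5′ to 3′ on the strand of its gene, begins 200 bases before the RefSeq start and ends before the next base that GENCODE 29 places in an exon of the gene. For CENPA, GENCODE 29 also has an earlier start, so that its stretch lies in an intron of the gene as annotated there.
CENPA: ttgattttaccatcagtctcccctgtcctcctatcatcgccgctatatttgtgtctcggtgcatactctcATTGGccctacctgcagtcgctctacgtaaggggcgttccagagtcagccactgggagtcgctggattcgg
ECT2: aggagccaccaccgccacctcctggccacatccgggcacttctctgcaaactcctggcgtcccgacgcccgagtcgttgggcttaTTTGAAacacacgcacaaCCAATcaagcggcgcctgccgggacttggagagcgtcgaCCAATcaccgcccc
NEK2: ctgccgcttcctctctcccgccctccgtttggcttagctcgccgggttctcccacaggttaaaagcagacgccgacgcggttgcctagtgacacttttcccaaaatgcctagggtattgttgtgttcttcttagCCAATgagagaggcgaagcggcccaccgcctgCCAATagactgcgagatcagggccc
SPC24: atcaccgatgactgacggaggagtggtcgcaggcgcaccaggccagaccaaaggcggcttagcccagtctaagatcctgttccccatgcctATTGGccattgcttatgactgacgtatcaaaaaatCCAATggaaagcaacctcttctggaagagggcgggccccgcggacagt
The stretches are chr2:26785856-26785996 (plus strand) for CENPA, chr3:172750526-172750681 (plus) for ECT2, chr1:211675631-211675821 (minus) for NEK2 and chr19:11155809-11155982 (minus) for SPC24. All 4 hold CCAAT, ECT2, NEK2 and SPC24 each at 2 places. No TTTGAA was found in the whole windows of NEK2 and SPC24, which changed in opposite directions. Over the genes tested, the median log2 fold change was 0.16 for the 27 with TTTGAA and 0.17 for the 10 without it. Of the 27, 13 passed the test for a change after ZEB1 knockdown, and of the 10, 7 did. Some of the 10 held the variant TTTAAA. With either TTTGAA or TTTAAA there were 33 genes, with a median of 0.16, and 16 of them passed. The 4 genes with neither had a median of 0.37, and all 4 passed. Over all genes tested, 19.0% rose and 21.2% fell.

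Read totals were between 19040636 and 22357633 per culture. ZEB1 itself was covered by 1247, 1276 and 908 reads with siControl. With siZEB1 it had 136, 132 and 162, and the log2 fold change was -2.85 (adjusted p = 4.85e-12, SE 0.11). The epithelial keratin genes KRT8 and KRT18 were abundant in every culture (at least 1267 CPM), and of the 8 tested of 10 epithelial and colorectal markers, these keratins included, 3 rose, 2 fell and 3 did not pass the test. EPCAM, VIL1 and KRT19 rose (log2 fold change 3.05, 2.34 and 1.62), and CDX2 and the stem cell marker LGR5, itself under 1 CPM, fell (-1.30 and -1.98). KRT20 was at or under 1 CPM, CDH17 had at most 5 reads and CDX1 was not among the genes listed. Of 14 leukocyte and fibroblast markers, 4 passed the filter, and their summed level was 14.9 to 17.0 CPM with siControl and 15.4 to 17.2 CPM with siZEB1. PDGFRB was the marker of these that passed the test, at 0.42, CD3E, LUM and HBB had at most 4 reads in any culture, and PTPRC and DCN were not among the genes listed. Replicate 3 of either group stood apart from replicates 1 and 2 of its group. It differed from them by 6.47 and 8.58 times sampling noise with siControl (chi-square over degrees of freedom, against 3.36 between replicates 1 and 2) and by 4.51 and 6.32 times with siZEB1 (against 2.18). Counts of mitotic genes that rose or fell are therefore also given without replicate 3 of both groups. That setting keeps in each group the 2 replicates that differed least, so its p-values can understate the spread between cultures.

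Levels in CPM are reads scaled to the library size after TMM normalization, and fold changes are log2 of siZEB1 over siControl with their standard error (SE). Differences were tested with the two-sided quasi-likelihood test of edgeR, and p-values were adjusted over all 14996 genes, with a threshold of 0.05. In bulk RNA, a change in the number of cells in mitosis and a change in the amount of transcript per cell cannot be told apart.

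The mitotic genes were slightly higher after ZEB1 knockdown as a set. Of the 44 tested, 22 rose, 3 fell (SPC24, UBE2C and CDC25B) and 19 did not pass the test. Over all genes tested, 19.0% rose and 21.2% fell. The median log2 fold change of the 44 was 0.16, against -0.01 for all genes, and 35 of the 44 estimates lay above 0 (79.5%, against 49.4% of all genes). The changes were small. The median absolute log2 fold change of the 25 genes that passed was 0.31, against 0.47 for all genes that passed, and BIRC5 was the only gene to pass the test with a change above 1.5-fold. The 2 groups of cultures did not overlap for 27 of the 44, against 49.5% of all genes, and siZEB1 was the higher group in 24 of these. Without replicate 3 of both groups, 22 genes, not all of them the same ones, rose and 8 fell. Over all 15148 genes tested in that setting, 3324 rose and 3599 fell.

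The levels of the 44 genes added up to 8829, 8930 and 8405 CPM in the siControl cultures and to 9746, 9428 and 9763 CPM in the siZEB1 cultures. The groups did not overlap, and the sum was 10.6% higher after knockdown. The median gene lay at percentile 91.3 of expression among all genes tested, MKI67 was the highest (99.0) and SPC24 the lowest (46.7). The shares and medians over all genes given above were not matched for expression, and smaller changes can pass the test in genes with more reads. Per kilobase of exon, siControl levels ran from 197 CPM for UBE2C, 160 for TPX2, 142 for CDC20 and 113 for AURKA down to 6.93 for CENPE and 6.47 for SPC24.

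**Figure D1:**
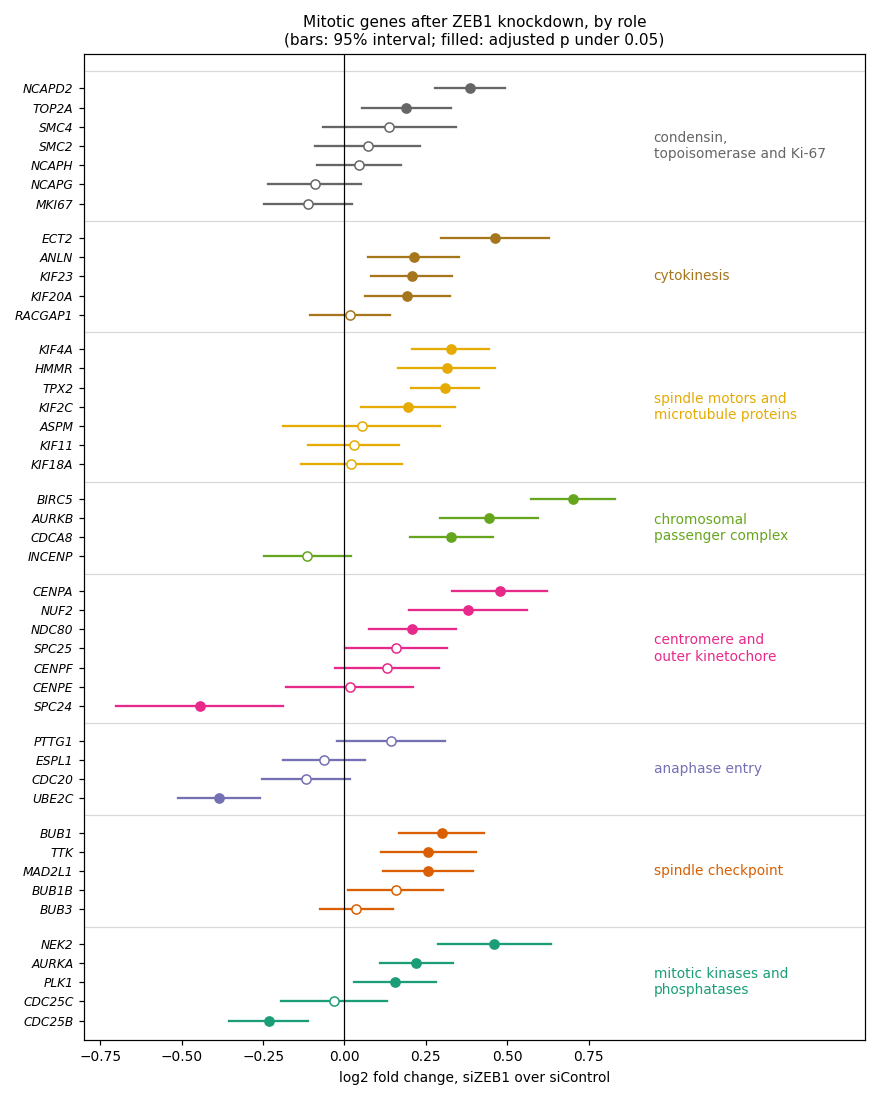
Log2 fold change (siZEB1 over siControl, horizontal axis) of the 44 mitotic genes tested, in 8 groups by role. Points are edgeR estimates, bars 95% intervals and filled points genes with an adjusted p under 0.05. BIRC5 lies farthest to the right at 0.70, and the 3 filled points left of 0 are SPC24, UBE2C and CDC25B.

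Among the mitotic kinases and phosphatases, NEK2, AURKA and PLK1 rose, CDC25B fell and CDC25C did not pass the test. NEK2, a kinase that parts the centrosomes at mitotic entry, had 43.2, 38.7 and 36.2 CPM in the siControl cultures and 58.5, 50.5 and 53.6 CPM in the siZEB1 cultures. Every siZEB1 culture lay above every siControl culture, with a log2 fold change of 0.46 (adjusted p = 0.00024, SE 0.08). AURKA, the centrosomal Aurora kinase that drives spindle assembly, was at 337, 336 and 317 CPM with siControl and 387, 389 and 378 CPM with siZEB1. The replicates were close together, and the small rise (log2 fold change 0.22, SE 0.05) passed the test with an adjusted p of 0.00313. PLK1, the Polo kinase needed at several steps of mitosis, was at 245, 262 and 278 CPM with siControl and at 294, 299 and 280 CPM with siZEB1. The highest siControl and the lowest siZEB1 culture nearly touched. Its log2 fold change of 0.16 (SE 0.06) stood at an adjusted p of 0.0475, and the call was lost when siControl replicate 1 or 2 or siZEB1 replicate 1 or 2 was left out (adjusted p = 0.2, 0.118, 0.146 and 0.163). The PLK1 call was also lost with scaling by library totals alone, with no filter and with a block for the replicate number (adjusted p = 0.0549, 0.0766 and 0.154). Exons on the opposite strand cover 12.5% of the exonic bases of PLK1.

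CDC25B, a phosphatase that activates CDK1 early in mitosis, was at 349, 357 and 382 CPM with siControl and at 319, 314 and 293 CPM with siZEB1. It was lower in all 3 siZEB1 cultures, by 0.23 on the log2 scale (log2 fold change -0.23, SE 0.06, adjusted p = 0.0038). CDC25C, its relative that acts on the same kinase, had a log2 fold change of -0.03 with a 95% interval from -0.20 to 0.13. The 5 genes of this group summed to a level 4.30% higher with siZEB1.

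In the spindle checkpoint, BUB1, TTK and MAD2L1 rose, and BUB1B and BUB3 did not pass the test. BUB1, the kinase that marks centromeric chromatin and recruits other checkpoint proteins, was at 246, 247 and 216 CPM with siControl and at 297, 285 and 291 CPM with siZEB1. The siZEB1 cultures were all higher, with a log2 fold change of 0.30 (adjusted p = 0.00089, SE 0.06). TTK, the kinase at the top of the checkpoint, and MAD2L1, which binds and holds back CDC20, each rose by 0.26 on the log2 scale (adjusted p = 0.00643 and 0.00501). BUB1B, the checkpoint protein BubR1, had a log2 fold change of 0.16 (interval 0.01 to 0.30, adjusted p = 0.082), and its groups did not overlap. Of its exonic bases, 10.2% are shared with the readthrough gene BUB1B-PAK6 on the same strand. BUB3, the partner of both BUB kinases, was at 0.04 (interval -0.08 to 0.15).

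Anaphase entry was the group of the 8 whose median log2 fold change lay below 0 (-0.09). None of its 4 genes rose, UBE2C fell, and the change of their summed level was -8.69%. The sums were 831, 848 and 894 CPM with siControl and 806, 817 and 726 CPM with siZEB1. Replicate 3 was thus the highest siControl and the lowest siZEB1 culture. UBE2C, the ubiquitin-conjugating enzyme that begins chains for the anaphase-promoting complex, was at 249, 251 and 260 CPM with siControl and at 201, 200 and 181 CPM with siZEB1. The groups stood clearly apart, with a log2 fold change of -0.39 (adjusted p = 6.07e-05, SE 0.06). CDC20, the activator of the complex that the checkpoint inhibits, was at 278, 283 and 308 CPM with siControl and at 275, 281 and 245 CPM with siZEB1. The groups overlapped, and the log2 fold change of -0.12 did not pass the test (interval -0.25 to 0.02, adjusted p = 0.15). ESPL1, the protease separase that cuts cohesin, was at -0.06 (interval -0.19 to 0.06). PTTG1, the securin that restrains separase, was at 0.14 (interval -0.02 to 0.31, adjusted p = 0.157). PTTG1 passed the test when siControl replicate 3 or siZEB1 replicate 3 was left out (adjusted p = 0.0432 and 0.0125). Without replicate 3 of both groups PTTG1 rose by 0.28 (adjusted p = 3.07e-06). With an offset for the GC content and length of transcripts it rose by 0.12 (adjusted p = 0.0475).

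Of the centromere and outer kinetochore genes, CENPA, NUF2 and NDC80 rose and SPC24 fell. CENPA, the histone H3 variant that marks the centromere, was at 47.2, 43.8 and 47.7 CPM with siControl and at 64.6, 66.5 and 61.9 CPM with siZEB1. This was the second largest rise in the set, 0.48 on the log2 scale (adjusted p = 3.48e-05, SE 0.07). The 4 subunits of the Ndc80 complex, which grips the microtubule end, had unlike estimates. NUF2 rose by 0.38 (interval 0.20 to 0.56) and its dimer partner NDC80 by 0.21 (0.07 to 0.34), SPC25 was at 0.16 (0.00 to 0.32, adjusted p = 0.0982), and SPC24, which pairs with SPC25, fell by 0.45 (-0.70 to -0.19). SPC25 passed the test without siControl replicate 3 (adjusted p = 0.035). The intervals of NUF2 and NDC80 do not overlap that of SPC24. The difference between the subunits itself was not tested.

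SPC24 was the least abundant gene of the set, with 376, 339 and 430 reads under siControl and 243, 272 and 255 under siZEB1, or 17.7, 15.1 and 22.3 CPM against 12.9, 14.1 and 13.3 CPM. Its siControl cultures were widely spread, and the lowest of them lay only just above the highest siZEB1 culture. The log2 fold change was -0.45 (adjusted p = 0.00754, SE 0.12), and it ran from -0.57 to -0.29 when each culture was left out in turn. CENPE, the kinesin that carries chromosomes to the spindle equator, was at 68.1, 72.6 and 55.7 CPM with siControl and at 64.3, 61.3 and 73.1 CPM with siZEB1. The groups overlapped fully, with a log2 fold change of 0.02 (interval -0.18 to 0.21, adjusted p = 0.908). Replicate 3 was the lowest of the siControl cultures and the highest of the siZEB1 cultures, and without replicate 3 of both groups CENPE was lower with siZEB1 (log2 fold change -0.16, adjusted p = 0.0387). CENPF, a large coat protein of the kinetochore, was at 0.13 (interval -0.03 to 0.29).

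The chromosomal passenger complex, which corrects faulty attachments and later acts at the midbody, had the largest single change of the set, that of BIRC5, and the highest median log2 fold change of the 8 groups (0.39). BIRC5, or survivin, its targeting subunit, was at 130, 129 and 141 CPM with siControl and at 221, 223 and 208 CPM with siZEB1. The gap between the groups was far larger than the spread within them, with a log2 fold change of 0.70 (adjusted p = 1.04e-07, SE 0.06), or 62.7% more. BIRC5 (ENSG00000089685, chr17:78214186-78225636 on GRCh38) shares no exonic base with another annotated gene. AURKB, the kinase of the complex, was at 124, 134 and 144 CPM with siControl and at 195, 184 and 168 CPM with siZEB1. No culture crossed over, and its estimate was 0.44 on the log2 scale (adjusted p = 9.32e-05, SE 0.07). CDCA8, or borealin, rose by 0.33 (interval 0.20 to 0.46). INCENP, the scaffold that holds the other subunits, was at -0.11 (interval -0.25 to 0.02, adjusted p = 0.168). The intervals of BIRC5, AURKB and CDCA8 lie above that of INCENP, although the difference between subunits was not tested. The summed level of the 4 was 26.4% higher with siZEB1.

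**Figure D2:**
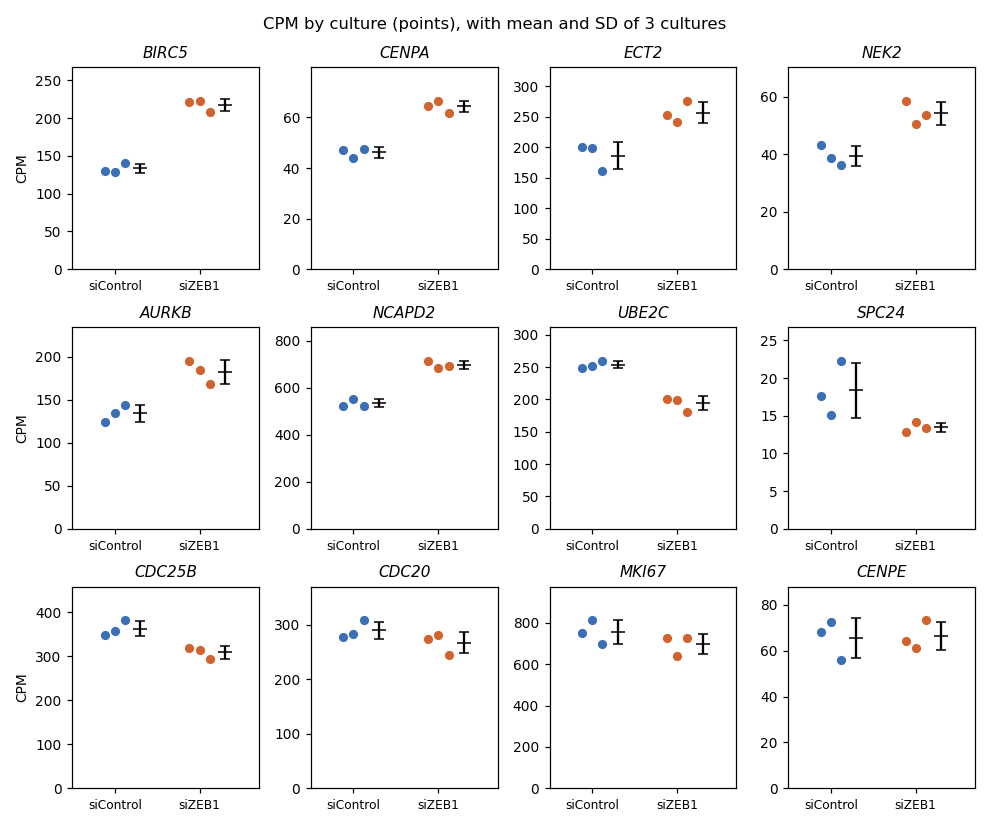
Level in CPM (vertical axis, from 0) in the 3 siControl and 3 siZEB1 cultures for 12 of the genes, with the mean and SD of each group beside the points. The groups do not overlap for BIRC5, CENPA, ECT2, NEK2, AURKB and NCAPD2 (higher with siZEB1) or for UBE2C, SPC24 and CDC25B (lower), and they overlap for CDC20, MKI67 and CENPE.

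Among the spindle motors and microtubule proteins, KIF4A, HMMR, TPX2 and KIF2C rose and KIF11, KIF18A and ASPM did not pass the test. TPX2, which activates AURKA on the spindle, was at 569, 581 and 580 CPM with siControl and at 736, 709 and 699 CPM with siZEB1. It was among the most abundant genes of the set, and its log2 fold change was 0.31 (adjusted p = 9.47e-05, SE 0.05). KIF4A, a chromosome-bound kinesin, rose by 0.33 (SE 0.06), and its near-identical copy KIF4B had 8 to 14 reads per culture. HMMR, a spindle pole protein that binds TPX2, rose by 0.31 (SE 0.07). KIF2C, the microtubule-depolymerizing kinesin at centromeres, rose by 0.19 (adjusted p = 0.0308, SE 0.07). Its call was lost without siControl replicate 1 or 2 or siZEB1 replicate 1 or 2, at adjusted p between 0.0525 and 0.156.

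KIF11, the motor Eg5 that pushes the spindle poles apart, was at 167, 162 and 143 CPM with siControl and at 158, 156 and 167 CPM with siZEB1. Its log2 fold change of 0.03 lay within the spread of the replicates (interval -0.11 to 0.17, adjusted p = 0.766). KIF18A, which dampens chromosome movements, was at 0.02 (interval -0.14 to 0.18). ASPM, a spindle pole protein with a transcript of over 10 kb, was at 0.05 (interval -0.19 to 0.29), and without replicate 3 of both groups it was lower with siZEB1 (log2 fold change -0.22, adjusted p = 0.000251). The summed level of the 7 genes was 17.4% higher with siZEB1.

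Of the 6 cytokinesis genes, ECT2, ANLN, KIF23 and KIF20A rose, RACGAP1 did not pass the test and PRC1 was not tested. ECT2, the exchange factor that switches on RhoA at the division plane, was at 200, 198 and 160 CPM with siControl and at 252, 242 and 275 CPM with siZEB1. All siZEB1 cultures were higher, although siControl replicate 3 lay well below the other siControl cultures, and the log2 fold change was 0.46 (adjusted p = 0.000158, SE 0.08). Leaving out that culture gave 0.36. KIF23, the motor subunit of centralspindlin, rose by 0.21 (adjusted p = 0.00996, SE 0.06), whereas RACGAP1, the other subunit and the docking site of ECT2, was at 0.02 (interval -0.11 to 0.14). KIF20A, a kinesin of the central spindle, rose by 0.19 (adjusted p = 0.0192), and ANLN, the scaffold of the contractile ring, by 0.21 (adjusted p = 0.0165).

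These last calls were not firm. KIF23 was lost without siControl replicate 2 (adjusted p = 0.0521). KIF20A was lost without siControl replicate 1 or 3 or siZEB1 replicate 1 or 2 (adjusted p = 0.0502 to 0.101). ANLN was lost without siControl replicate 3 or siZEB1 replicate 3 (adjusted p = 0.0528 and 0.0661), and NDC80, of the kinetochore, without siZEB1 replicate 1 (adjusted p = 0.05).

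PRC1, which bundles the microtubules of the central spindle, was covered by only 6, 8 and 5 reads in siControl samples and by 4, 5 and 10 in siZEB1 samples, while each of the other 5 cytokinesis genes had at least 2766 in every culture. In GENCODE 29, 57.6% of its exonic bases are shared with AC068831.7, a gene annotated on the same strand, which had 0 to 2 reads per culture. NUSAP1, another gene of the spindle, was similar. It had 0 to 13 reads per culture, and 62.2% of its exonic bases are shared with AC087721.2. How the counting treated reads in shared exons was not given in the sources used here, so the counts of PRC1 and NUSAP1 give no level for these transcripts.

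In the group of condensin subunits, topoisomerase and Ki-67, NCAPD2 and TOP2A rose and the other 5 did not pass the test. NCAPD2, a regulatory subunit of condensin I, was at 525, 554 and 523 CPM with siControl and at 716, 685 and 693 CPM with siZEB1. The log2 fold change of 0.39 (adjusted p = 1.27e-05, SE 0.05) was large against the spread of the replicates. The other subunits of condensin I did not pass the test, with NCAPH at 0.05 (interval -0.09 to 0.18), NCAPG at -0.09 (-0.23 to 0.05), SMC2 at 0.07 (-0.09 to 0.23) and SMC4 at 0.14 (-0.07 to 0.34). Exons of other genes on the opposite strand cover 33.1% of NCAPG, 25.6% of SMC4 and 7.5% of NCAPD2.

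TOP2A, the topoisomerase that untangles sister chromatids, was at 556, 550 and 479 CPM with siControl and at 597, 567 and 645 CPM with siZEB1. Its log2 fold change was 0.19 (adjusted p = 0.027, SE 0.06), and the call was lost without siControl replicate 3, siZEB1 replicate 1 or siZEB1 replicate 3 (adjusted p = 0.0991, 0.0693 and 0.1). MKI67, which encodes the proliferation marker Ki-67 that coats mitotic chromosomes, was at 752, 811 and 697 CPM with siControl and at 725, 639 and 728 CPM with siZEB1. The groups overlapped, and the log2 fold change of -0.11 did not pass the test (interval -0.25 to 0.02, adjusted p = 0.177). Without siControl replicate 3 it was -0.17 with an adjusted p of 0.0244.

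**Figure D3:**
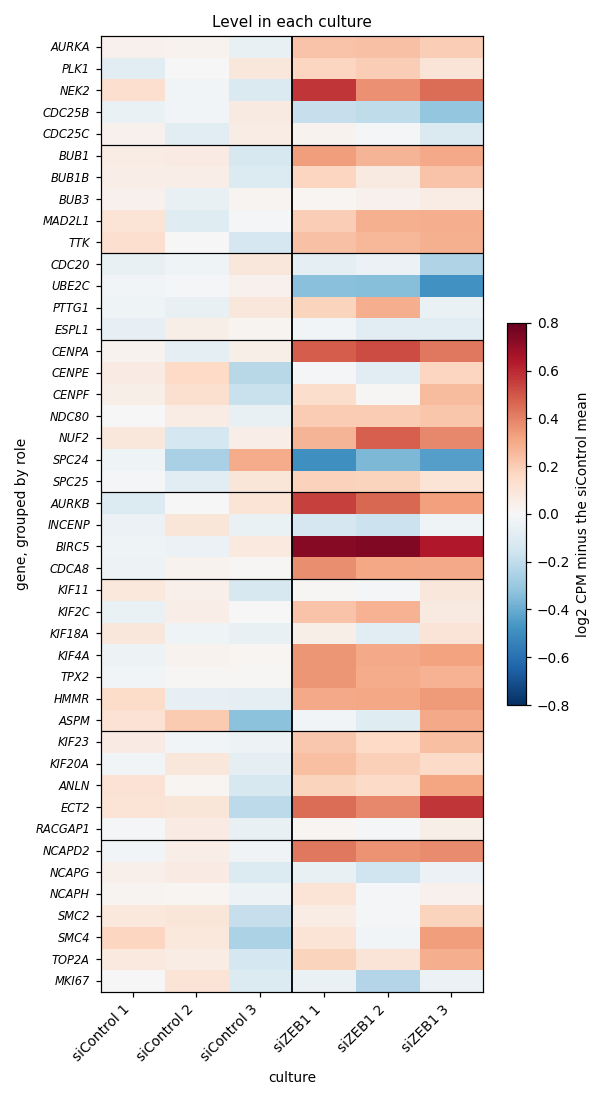
Level of each of the 44 genes (rows, grouped by role) in each culture (columns), as log2 CPM minus the mean of the 3 siControl cultures, with red higher and blue lower. BIRC5 is red in all 3 siZEB1 cultures and UBE2C and SPC24 are blue, while ASPM, CENPE, SMC4 and ECT2 are blue in siControl replicate 3.

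Replicate 3 of both groups departed from replicates 1 and 2 along the base composition and length of the transcripts, and in opposite directions. Over the 44 genes, the level in siControl replicate 3 relative to siControl replicates 1 and 2 correlated with the GC content of the longest coding transcript at r = 0.66 and with its log2 length at r = -0.64. In siZEB1 replicate 3 the same correlations were -0.64 and 0.76. The genes share 1 library in each correlation, so these values describe the libraries. The pattern was not particular to the mitotic genes, since over 12360 genes the correlations with GC content were 0.41 and -0.28.

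Of the 44 genes, 19 had both the lowest siControl value in replicate 3 and the highest siZEB1 value in replicate 3, among them the long AT-rich ASPM, CENPE and SMC4. INCENP, at 59.6% GC, was also among the 19. Another 10 had the reverse, among them the shorter and more GC-rich CDC20 and UBE2C. These counts were not made over all genes. The log2 fold change over all cultures was only weakly related to GC content (r = -0.21) and length (r = -0.10). Without replicate 3 of both groups, ASPM, CENPE, INCENP, MKI67 and NCAPG joined the 3 genes that fell. Among the genes that rose, ANLN and TOP2A were lost (adjusted p = 0.0705 and 0.163). PTTG1 and SPC25 were gained (adjusted p = 3.07e-06 and 0.00727). With an offset for GC content and length, 25 genes rose and 4 fell. Over all 12360 genes tested with the offset, 3525 rose and 3320 fell, against 2849 and 3186 of 14996 in the main fit. Both alternatives were chosen after the data were seen.

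**Figure D4:**
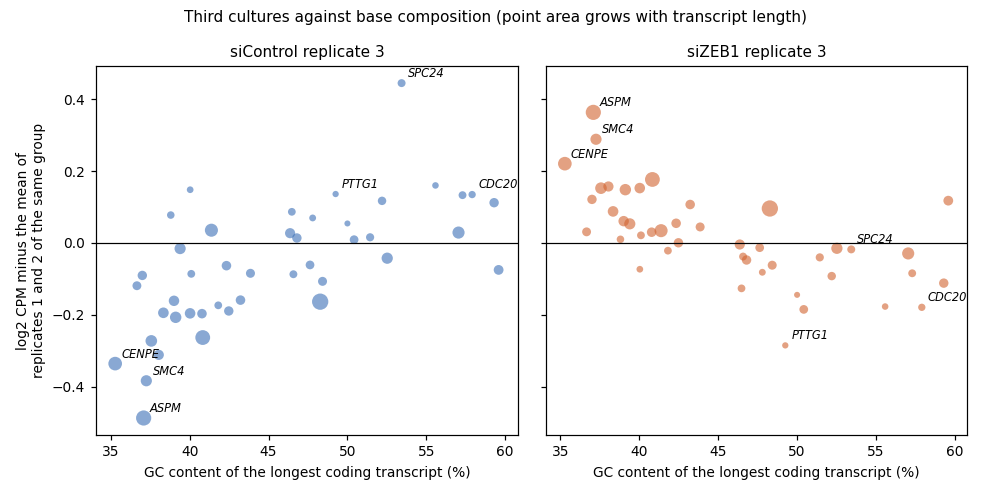
Level in replicate 3 minus the mean of replicates 1 and 2 of the same group (vertical axis, log2 CPM) against GC content of the longest coding transcript (horizontal axis, percent) for the 44 genes, with larger points for longer transcripts. The points rise from left to right for siControl replicate 3 (r = 0.66) and fall for siZEB1 replicate 3 (r = -0.64).

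Of 154 other genes of mitosis on 5 lists, 152 were tested, with 49 higher (32.2%) and 31 lower (20.4%) at a median log2 fold change of 0.03, against 19.0% and 21.2% over all genes tested. Without replicate 3 of both groups 52 were higher and 40 lower, and with the offset for GC content and length 56 and 41. Calls were also more frequent over all genes in these settings. Without replicate 3, 3324 of 15148 genes were higher and 3599 lower, and with the offset 3525 and 3320 of 12360. A change above 1.5-fold passed the test in 19 of the 152 (12.5%) and in 1 of the 44 (2.27%), against 14.9% of all genes. The difference between the 44 and the other genes was not tested. Of 40 other kinetochore and centromere genes, 12 rose and 7 fell (30.0% and 17.5%). ZW10, part of the complex that brings dynein to kinetochores, rose by 1.14 on the log2 scale, SKA2, which couples kinetochores to microtubules, rose by 0.88, and ZWILCH, the partner of ZW10, had a log2 fold change of -0.70. Of 44 other spindle and centrosome genes, 7 rose and 12 fell (15.9% and 27.3%), with the largest changes in the ciliary transport motor KIF3A (-0.99), the dynein regulator NDE1 (-0.90) and the microtubule stabilizer CLASP1 (-0.89).

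Of 31 other cytokinesis genes, 15 rose and 4 fell (48.4% and 12.9%). The largest changes were in 3 subunits of ESCRT-III, which severs the last bridge between daughter cells. CHMP4C rose by 0.99 and CHMP6 was at -0.78, while CHMP4A (0.91) had about 1 CPM and shares 68.8% of its exonic bases with other genes on its strand. Of 19 other condensin and cohesin genes, 8 rose and 5 fell (42.1% and 26.3%), with NCAPD3, the counterpart of NCAPD2 in condensin II, at -1.07, and the cohesin regulators PDS5A and PDS5B at -0.75 and 0.55. Of 18 genes of the anaphase-promoting complex, the partner of UBE2C and CDC20, 7 rose and 3 fell (38.9% and 16.7%), among them the subunits ANAPC5 (-0.94) and CDC27 (-0.59) and the conjugating enzyme UBE2D1 (0.65).

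**Figure D5:**
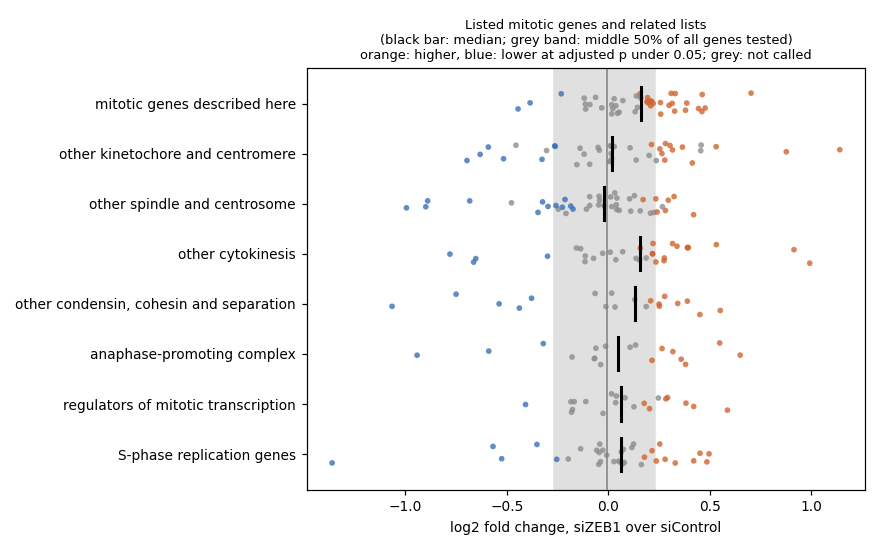
Log2 fold change (siZEB1 over siControl, horizontal axis) of each tested gene in the mitotic set (top row) and in 7 related lists, with a black bar at the median of each. Orange points rose, blue points fell and grey points did not pass the test, and the grey band holds the middle 50% of all genes tested. The mitotic set has a median of 0.16 and reaches from -0.45 to 0.70, and the related lists together reach from -1.36 to 1.14.

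Of 20 tested regulators of mitotic transcription, 7 rose and 1 fell (35.0% and 5.0%). FOXM1, the forkhead factor that activates G2/M genes, was at 206, 208 and 214 CPM with siControl and at 242, 228 and 216 CPM with siZEB1. Its groups did not overlap, but the log2 fold change of 0.13 did not pass the test (adjusted p = 0.101). MYBL2, or B-MYB, the partner of LIN54 and FOXM1 at these promoters, was at 186, 190 and 219 CPM with siControl and at 155, 153 and 140 CPM with siZEB1. It was the regulator that fell, at -0.41 (adjusted p = 0.000168, SE 0.07), opposite in direction to most of the mitotic genes. LIN52 and RBBP4, subunits of the same complexes, rose by 0.59 and 0.42, and LIN9 was at -0.18 (interval -0.37 to 0.01, adjusted p = 0.123). E2F1, which acts earlier, at entry into S phase, rose by 0.28 (adjusted p = 0.00421). CDKN1A, the CDK inhibitor p21 through which p53 engages DREAM, was at -0.11 (interval -0.25 to 0.03, adjusted p = 0.193).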

How the data were processed

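RNA was sequenced from 6 cultures of SW480 cells, 3 siControl and 3 siZEB1, described in the paper as biological replicates. The authors deposited whole-number read counts per Ensembl gene, not normalized. The submitters' processing notes name Trimmomatic, HISAT2, SAMtools, featureCounts and hg38, and the annotation and strand setting were not given in the sources used here, so genes with overlapping exons are uncertain. Counts were filtered (edgeR's filterByExpr, 14996 genes kept), TMM-normalized and compared with the two-sided quasi-likelihood test of edgeR at a Benjamini-Hochberg adjusted p of 0.05. The fit was tested on simulated data. Versions were R 4.3.3, edgeR 4.0.16, limma 3.58.1, DESeq2 1.42.0, Python 3.11.15, numpy 2.4.6, pandas 2.3.3 and matplotlib 3.10.9.

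Totals of 19040636 to 22357633 counts and a biological coefficient of variation of 6.58% set the precision. Replicates differed by 2.18 to 8.58 times sampling noise (chi-square over degrees of freedom), so none was a copy of another.

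The genes and lists were chosen with earlier results of these data known. Values per culture were given for the 6 largest called rises, all called falls and 8 further genes (AURKA, PLK1, BUB1, CDC20, CENPE, KIF11, TOP2A and MKI67) whatever their value. TPX2, PRC1, NUSAP1 and PCNA were added after their values were seen. Outside the set, ZEB1, FOXM1, MYBL2, LIN9, E2F1 and CDKN1A were named, with up to 3 called genes of each list. KRT8, KRT18, KRT19, KRT20, VIL1, CDX1, CDX2, CDH17 and the leukocyte and fibroblast genes were named as marker checks, also with values seen. Positions, lengths and exon overlaps are from GENCODE 29 (GRCh38), and per-kilobase levels use the union of exons. Alternatives were a fold threshold of 1.5, a block for the replicate number, leaving out each culture, no filter, a minimum of 10 counts in all cultures, scaling by library totals alone or by DESeq2's size factors, and DESeq2's Wald test. Added after the data were seen were leaving out replicate 3 of both groups and an offset for GC content and length.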

Additional observations from a re-analysis of the deposited data

How the results depend on the processing

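With no filter, a minimum of 10 counts, scaling by library totals or DESeq2's size factors, and DESeq2's Wald test, 21 or 22 mitotic genes rose and 3 fell. With a fold threshold of 1.5, 1 rose and 0 fell by edgeR. Without replicate 3 of both groups, 8 fell. Leaving out each culture in turn gave 17 to 21 higher, 3 to 4 lower and a median log2 fold change of 0.15 to 0.19, the highest without siZEB1 replicate 2. Of the 25 genes that passed, 18 passed under all 14 alternatives other than the fold threshold, and of the 19 others 9 passed under at least 1 of these.

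Estimates near 0 changed sign. Without replicate 3 of both groups these were CDC25C (0.0398), CENPE (-0.161), CENPF (-0.00893), KIF11 (-0.0605), KIF18A (-0.0464), ASPM (-0.22), RACGAP1 (-0.0233), SMC2 (-0.0635) and SMC4 (-0.0784). With the GC and length offset these were ESPL1 (0.0547), CENPE (-0.0134), KIF11 (-0.00916), KIF18A (-0.0592), RACGAP1 (-0.00764) and MKI67 (0.00567). With 1 culture left out the ranges were -0.0802 to 0.0100 for CDC25C, -0.0892 to 0.0958 for CENPE, -0.036 to 0.0702 for KIF11, -0.018 to 0.0734 for KIF18A, -0.094 to 0.158 for ASPM, -0.0136 to 0.0496 for RACGAP1 and -0.0163 to 0.118 for SMC2. The cause was not tested.

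Equal replicate numbers were not treated as marking paired samples. Deviations of same-numbered cultures from their group means correlated at -0.05, -0.09 and -0.20. Replicate 3 departed in opposite directions in the 2 groups, so these values cannot show whether cultures were paired. With a replicate block, 15 mitotic genes rose and 3 fell, and 35 other mitotic genes rose and 25 fell. Over all 14996 genes, 2289 rose and 2679 fell with the block. The mitotic genes whose rise was lost with it were PLK1, NDC80, KIF2C, KIF23, KIF20A, ANLN and TOP2A. Fold changes of genes near 1 CPM, such as CHMP4A, rest on few reads.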

Other observations

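Genes of DNA replication, which act in S phase before mitosis, changed in both directions. Of 34 tested, 10 rose and 5 fell (29.4% and 14.7%, against 19.0% and 21.2% of all genes), with a median log2 fold change of 0.06. UHRF1, which maintains DNA methylation behind the replication fork, was at 379, 374 and 366 CPM with siControl and at 142, 140 and 153 CPM with siZEB1. Its log2 fold change of -1.36 (SE 0.06) was larger than that of any mitotic gene described, in either direction. POLA1, the catalytic subunit of the priming polymerase, was at -0.57, and CHAF1B, a subunit of the histone chaperone CAF-1, at -0.53, while PCNA, the sliding clamp, rose by 0.50, from 408, 403 and 407 CPM to 578, 587 and 554 CPM.

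The summed level of these replication genes was 2.95% higher with siZEB1, and that of the 44 mitotic genes 10.6% higher. Mitochondrial genes took 3.75% to 4.03% of the counts with siControl and 3.60% to 3.66% with siZEB1.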
